A study of Homo sapiens with 4 samples.

Results

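Histone genes were taken from the deposited expression table by gene symbol, as every gene whose symbol begins with H1-, H2A, H2B, H3 or H4. The rule found 73 of the 16376 genes listed. Of these, 55 carried the symbols of the replication-dependent histone clusters (H1-1 to H1-5 and the numbered H2AC, H2BC, H3C and H4C genes) and are called cluster members here, and 18 carried other symbols and are called other variants. In RefSeq, 47 cluster members lay on chromosome 6 and 8 on chromosome 1. The study asked what fluoxetine, a serotonin reuptake inhibitor used as an antidepressant, does to neuroendocrine prostate cancer (NEPC) cells. RNA of LASCPC-01 cells, an established NEPC line built on N-Myc and activated AKT1 and labelled as wild-type in genotype, was sequenced from 2 libraries of cells given PBS and 2 of cells given fluoxetine. The labels place all 4 libraries at day 3 without a dose, while the figure legends of the study give 5 µM for 48 h. Both treated samples are labelled fluoxetine, though their titles also hold the unexplained letters PP.

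Replication-dependent histone genes are transcribed in S phase to package newly made DNA, and most of their mRNAs end in a conserved stem-loop in place of a poly(A) tail. The stem-loop is bound by SLBP, and the transcript is cut just downstream of it by a complex that includes the U7 snRNP. Other variants, such as H2A.Z, H3.3 and the linker histone H1.10, are made outside S phase too, mostly from polyadenylated mRNAs. By the labels the kit was a stranded TruSeq mRNA kit, which selects RNA by its poly(A) tail, whereas the methods name a VAHTS kit and no selection step. If the labels hold, a level given here is that of RNA retained by this selection. In bulk RNA, fewer cells expressing a gene and less RNA per cell cannot be told apart.

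To show what the 3′ ends of these mRNAs look like, the GENCODE 29 transcripts of the members (GRCh38) were searched on the transcribed strand for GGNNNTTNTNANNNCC with the NNN arms able to pair, G with T allowed. The pattern was present in 23 of 53 cluster members and in 5 of 18 other variants with a transcript there, against 0.307% of all 58676 GENCODE genes. Of the 30 cluster members without a match, 27 had transcript models that end at the stop codon, so the search could not reach their 3′ ends. The 5 examples below were chosen because results are given for them below, and capitals mark the stem-loop.
H2AC6, chr6:26124669-26124684 (plus strand): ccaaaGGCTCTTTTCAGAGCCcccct
H2BC21, chr1:149886188-149886203 (minus strand): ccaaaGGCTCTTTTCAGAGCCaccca
H2AC11, chr6:27133515-27133530 (plus strand): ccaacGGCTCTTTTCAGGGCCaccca
H4-16, chr12:14770724-14770739 (minus strand): caaaaGGCCCTTTTCAGGGCCcccaa
H2AX, chr11:119094898-119094913 (minus strand): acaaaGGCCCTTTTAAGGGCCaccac
The form in H2AC6 and H2BC21 was shared by 14 members, and that in H4-16 by 4 members, the other 3 being H4 genes of the cluster. The forms in H2AC11 and H2AX were each found in 1 member. In 22 of the members with a match, the longest annotated transcript ran at least 100 bases past the stem-loop, by 1128 bases in H2AC6, 1729 in H2BC21, 1510 in H4-16 and 1044 in H2AX. The span over which reads were counted differed from this: the RefSeq span ended 6 bases past the stem-loop in H2AC6 and 4 bases past it in H4-16, but 1729 bases past it in H2BC21 and 1024 in H2AX. No sequence is given for H2AC20, whose transcript model stops at the stop codon.

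The authors deposited FPKM, which set the fragments on a gene against its length and the sequencing depth. FPKM of a gene are whole multiples of what 1 read is worth, which allowed the reads behind them to be recovered for 99.98% of genes above 0. Between 32255603 and 34180596 reads fell on the listed genes of each library. The lowest whole reads that fitted were taken, and the true reads could be multiples of them. MYCN, INSM1 and NCAM1 were at mean FPKM of 361, 22.9 and 48.6, whereas SYP was at 0.451 and CHGA, CHGB and NEUROD1 were under 0.1, so several defining neuroendocrine markers were nearly absent. Of 12 stromal and immune markers, CD68 at 3.27 and COL1A1 at 2.44 were the only ones over 1 on average.

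Across genes, replicate libraries had correlations of log2 values of 0.9933 for PBS and 0.9936 for fluoxetine. Their reads differed by more than counting noise. Over tested genes with at least 10 reads in the group, the chi-square per degree of freedom was 9.65 for PBS and 11.67 for fluoxetine. Over the cluster members among them, the chi-square per gene was 2.22 (33 genes) for PBS and 2.65 (35 genes) for fluoxetine. The labels do not say whether libraries of a group came from separate cultures, so p-values measure only the spread between these libraries. An exact permutation test of 2 against 2 libraries cannot go below p = 0.333, so the tests below come from limma on log2(FPKM + 0.1), fitted and adjusted over the 12663 genes whose FPKM averaged 0.1 or more. Fold changes are on this scale, fluoxetine minus PBS, and are smaller than true ratios for low genes.

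Cluster members were low in these libraries. Their highest mean was 19.7 FPKM, 2 of the 55 were at 10 FPKM or more, 17 at 1 or more, 26 between 0.1 and 1, and 12 below 0.1. Their median of mean FPKM was 0.474. Of the 18 other variants, 5 were at 100 FPKM or more and 9 at 1 or more, with H2AZ1 at 493 the highest. All 55 cluster members together held 6.11% of the FPKM summed over the 73 histone genes. These levels depend on the symbols used for the split. H2AW, at a mean of 44.3 FPKM, counts here as an other variant, although RefSeq gives it a cluster symbol, H2AC25. Within the clusters, H2BC12 and H2AC6 held 37.5% of the summed FPKM and the top 5 genes held 56.3%.

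**Figure D1:**
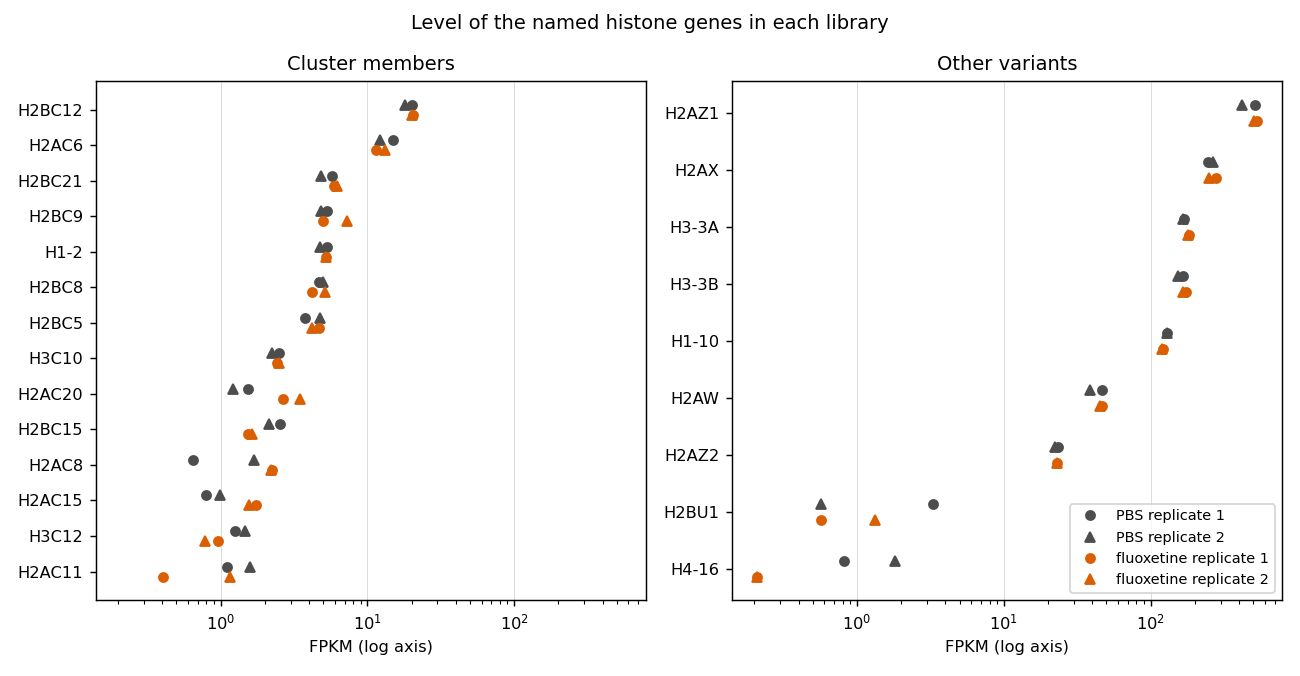
FPKM (horizontal, log axis) of 14 cluster members at the left and 9 other variants at the right, with 1 point per library (grey PBS, orange fluoxetine; circles replicate 1, triangles replicate 2). In H2AC20 both fluoxetine points lie above both PBS points and in H4-16 both lie below, while H2AZ1, H2AX, H3-3A, H3-3B and H1-10 stand above 100 FPKM in every library.

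Under fluoxetine, 1 cluster member rose and 1 other variant fell, and the other 53 tested members did not pass the adjusted threshold in either direction. The member that rose was H2AC20, which encodes a core H2A histone. The member that fell was H4-16, an H4 gene on chromosome 12, outside the clusters on chromosomes 6 and 1, that encodes a core H4 histone. H4-16 counts as an other variant by its symbol only. It has the same stem-loop form as H4C5, H4C8 and H4C11, and RefSeq gives it a cluster symbol, H4C16. Of the 43 cluster members tested, 1 (H2AC20) was higher at an adjusted p under 0.05, where 0.0237% of all genes tested were. None was lower, where 0.213% of all genes were. An unadjusted p under 0.05 in either direction was found for 12 of the 43, where 8.51% of all genes had one (limma). All 12 were among the 38 tested cluster members under 1000 bases. Of the 560 tested genes of that length that are not histone genes, 143 had such a p. Of the 12 other variants tested, none was higher and 1 was lower, with 2 at an unadjusted p under 0.05 (limma). Run on the recovered reads, voom called 0 of the histone genes.

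H2AC20 lies at chr1:149886918-149887411 on the plus strand, within the cluster on chromosome 1. Its FPKM were 1.54 and 1.22 under PBS and 2.68 and 3.49 under fluoxetine. These values came from 25 and 21 reads, and from 46 and 60 reads. Both fluoxetine libraries were above both PBS libraries. The log2 fold change was 1.10 (SE 0.17, limma adjusted p = 0.0192). No 150-base stretch of its transcript model was shared with a GENCODE gene at another locus, and no RefSeq gene overlapped it. The model ends at the stop codon, so the counted span beyond it was not compared. The call did not hold without any 1 of the 4 libraries (log2 fold change 0.91 to 1.28, limma adjusted p = 0.0567 to 0.65), nor in limma voom on the reads (adjusted p = 0.445), which called 0.361% of the genes it tested.

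H4-16, whose RefSeq symbol is H4C16, lies at chr12:14770720-14771131 on the minus strand. Its FPKM were 0.812 and 1.82 under PBS and 0.209 and 0.209 under fluoxetine. The reads behind them were 11 and 26 under PBS and 3 and 3 under fluoxetine. The groups did not overlap, although the PBS libraries differed between themselves by more than a doubling. The log2 fold change was -2.10 (SE 0.32, limma adjusted p = 0.0181). The call did not hold without any 1 of the 4 libraries (log2 fold change -2.63 to -1.56, limma adjusted p = 0.0792 to 0.505), nor in voom on the reads (adjusted p = 0.41), and with a pseudocount of 1 the log2 fold change was -0.90 (adjusted p = 0.0542).

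Fold changes of the cluster members lay on both sides of 0. Their median log2 fold change was 0.05 over the 43 tested, with 22 above 0 and 21 below and a range from -1.56 to 1.45. The median was 0.07 over the 12 other variants tested and -0.02 over all genes tested. In 9 cluster members both fluoxetine libraries were above both PBS libraries and in 8 both were below, which is 20.9% and 18.6% of those tested. Over all genes tested, 16.7% were separated upward and 24.8% downward, 41.6% in all. Among tested genes under 1000 bases that are not histone genes, 34.5% were separated upward and 8.57% downward. The shares for tested cluster members of that length were 21.1% and 18.4%, and the difference was not tested. Of the other variants tested, 3 were separated upward and 3 downward.

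Summed over all 55 cluster members, FPKM were 87.3 and 82.7 under PBS and 87.6 and 91.2 under fluoxetine. The fluoxetine sums were both above the PBS sums, and the log2 ratio of the group means was 0.07. Summed over the 18 other variants, FPKM were 1352 and 1255 under PBS and 1417 and 1339 under fluoxetine, with a log2 ratio of 0.08 and with the groups overlapping. Over all listed genes the fluoxetine sums were also both above the PBS sums, with a log2 ratio of 0.05. Those sums were 364710 and 355730 FPKM under PBS and 379050 and 365730 under fluoxetine. The reads behind the cluster sums were 2261, 2269, 2481 and 2516, a small part of each library.

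**Figure D2:**
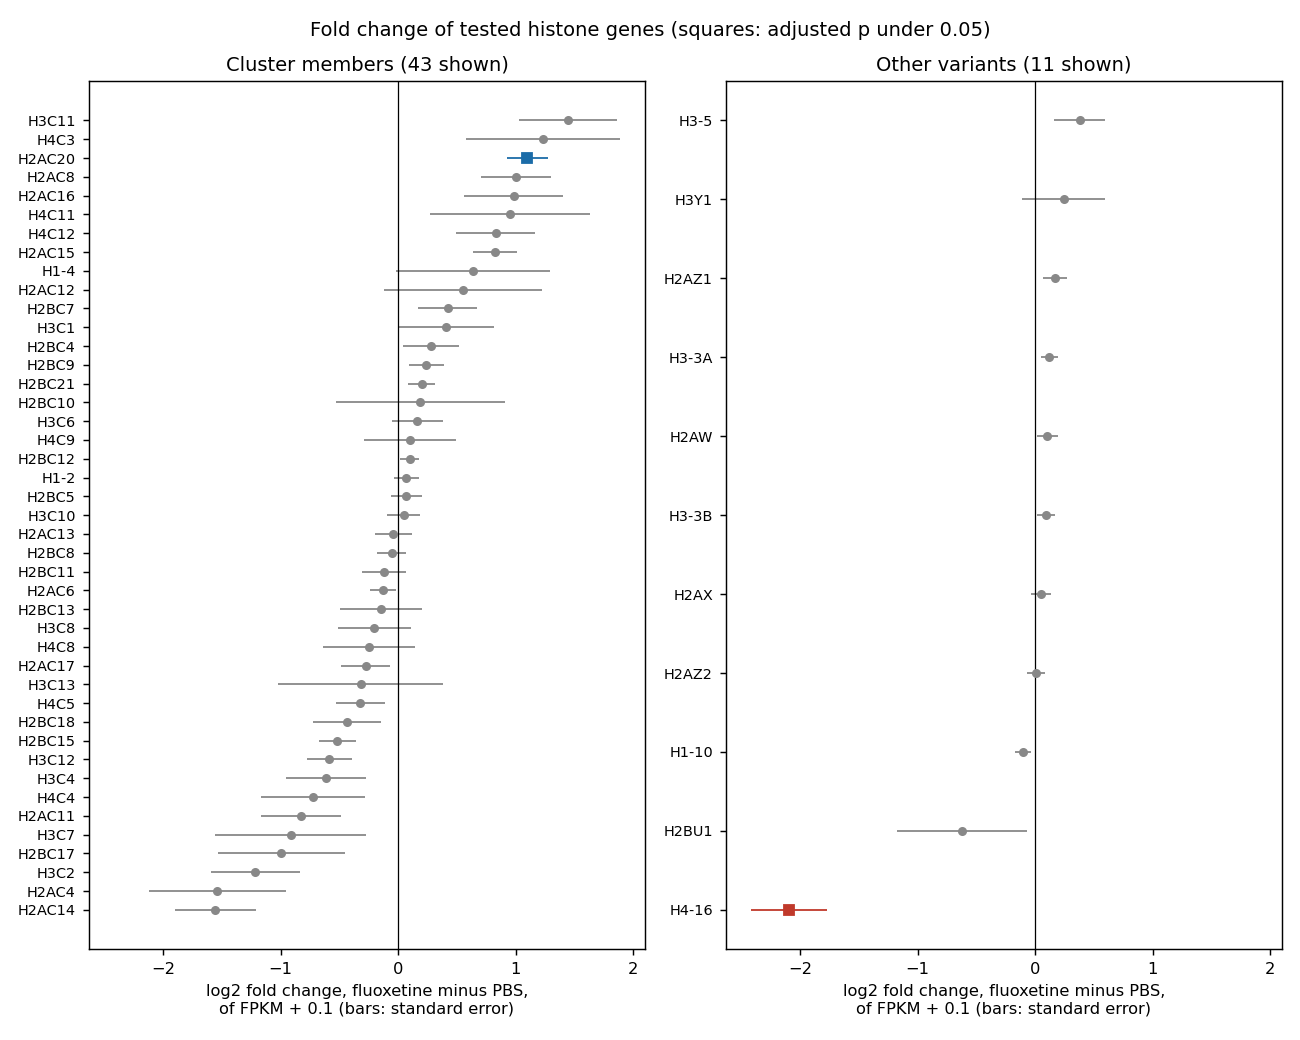
Log2 fold change, fluoxetine minus PBS, of FPKM + 0.1 (horizontal) with its standard error for the 43 cluster members (left) and 11 of the 12 other variants (right) tested, sorted by value. The cluster members spread on both sides of 0 from -1.56 to 1.45, and squares mark H2AC20 and H4-16, the genes with an adjusted p under 0.05.

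The core histones of the clusters were then taken by family, beginning with H2A, which pairs with H2B in the nucleosome. Of 13 cluster H2A genes, 11 were tested, with a median log2 fold change of -0.04 and a range from -1.56 to 1.10. In this family 7 of the 11 had an unadjusted p under 0.05 in either direction (limma). Of all genes tested 8.51% did, and of the 560 non-histone genes under 1000 bases 143 did. The families were not compared by a test. H2AC6, the second highest cluster member, had 256 and 220 reads under PBS and 208 and 239 under fluoxetine, with overlapping groups (log2 fold change -0.13, SE 0.11). H2AC8 had 12 and 33 reads under PBS and 44 and 43 under fluoxetine, a log2 fold change of 1.004 (SE 0.30, limma adjusted p = 0.397). Its groups did not overlap, but its first PBS library was far below the second, and the log2 fold change was 0.38 without the first and 1.63 without the second. H2AC15 had 13 and 17 reads under PBS and 30 and 27 under fluoxetine, again with no overlap (log2 fold change 0.82, SE 0.18, limma adjusted p = 0.167). H2AC11 had 18 and 27 reads under PBS and 7 and 20 under fluoxetine, and its groups overlapped (log2 fold change -0.83, SE 0.34, limma adjusted p = 0.551). Without the first fluoxetine library its log2 fold change was -0.17, and without the second it was -1.49.

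Of the 16 cluster H2B genes, 13 were tested. Their log2 fold changes ranged from -0.99 to 0.42 with a median of 0.07, and 1 had an unadjusted p under 0.05 (8.51% of all genes). H2BC12, the highest cluster member, was at 20.2 and 18.0 FPKM under PBS and 20.6 and 20.2 under fluoxetine (log2 fold change 0.10, SE 0.08). Its fluoxetine libraries were above both PBS libraries by less than the PBS libraries differed. H2BC21 was at 5.74 and 4.84 FPKM and then 5.92 and 6.22, without overlap (log2 fold change 0.20, SE 0.11, limma adjusted p = 0.616). H2BC9 was at 5.33 and 4.80 FPKM under PBS and 4.97 and 7.21 under fluoxetine, its last library standing above the other three (log2 fold change 0.24, SE 0.15). H2BC8 had 75 and 85 reads under PBS and 71 and 88 under fluoxetine, and H2BC5 had 162 and 218 and then 214 and 193. Both of these overlapped, with log2 fold changes of -0.06 and 0.07. H2BC15 went the other way, with 45 and 40 reads under PBS and 29 and 31 under fluoxetine, no overlap and a log2 fold change of -0.52 (SE 0.15, limma adjusted p = 0.392).

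H3 and H4 form the tetramer at the centre of the nucleosome. Of 11 cluster H3 genes, 10 were tested, with a median log2 fold change of -0.26, a range from -1.22 to 1.45 and 3 at an unadjusted p under 0.05 (8.51% of all genes). H3C10 was at 2.50 and 2.25 FPKM under PBS and 2.42 and 2.48 under fluoxetine, with overlap (log2 fold change 0.05, SE 0.14). H3C12 had 21 and 26 reads under PBS and 17 and 14 under fluoxetine, below both PBS libraries (log2 fold change -0.59, SE 0.19, limma adjusted p = 0.466). Of 10 cluster H4 genes, 7 were tested, with a median of 0.10 and a range from -0.72 to 1.23. These H4 genes rested on few reads, 49 and 51 in all under PBS and 56 and 58 under fluoxetine. Of the 5 cluster H1 genes, which encode the linker histones of S phase, 2 were tested. H1-2, the highest, was at 5.28 and 4.72 FPKM under PBS and at 5.23 and 5.26 under fluoxetine, with overlapping groups (log2 fold change 0.07, SE 0.11).

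Among the other variants, those at the highest levels did not pass the adjusted threshold. H2AZ1, which encodes the H2A.Z found at promoters, was at 514 and 416 FPKM under PBS and 534 and 508 under fluoxetine, with overlap (log2 fold change 0.17, SE 0.10, limma adjusted p = 0.624). H2AZ2, the other H2A.Z gene, was at 23.4, 22.4, 23.1 and 22.9 FPKM (log2 fold change 0.01, SE 0.08). H2AX, whose protein is phosphorylated at DNA breaks, was at 245 and 267 FPKM under PBS and at 279 and 249 under fluoxetine (log2 fold change 0.05, SE 0.08), and the groups overlapped. Its counted span overlaps that of DPAGT1 in RefSeq. H3-3A and H3-3B, which encode the same H3.3 protein, were each higher in both fluoxetine libraries without passing the test. H3-3A was at 169 and 165 FPKM under PBS and 184 and 179 under fluoxetine (log2 fold change 0.12, SE 0.07, limma adjusted p = 0.624). H3-3B was at 165.0 and 153.0 FPKM under PBS and 173.0 and 165.2 under fluoxetine (log2 fold change 0.09, SE 0.08, limma adjusted p = 0.724). The second fluoxetine library of H3-3B was barely above the first PBS library, by less than the PBS libraries differed.

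H1-10, a linker histone, was lower in both fluoxetine libraries without passing the test, at 130 and 129 FPKM under PBS and 122 and 119 under fluoxetine (log2 fold change -0.11, SE 0.07, limma adjusted p = 0.651). H2AW and H2BU1 lie head to head on chromosome 1 and carry the stem-loop, and RefSeq gives them cluster symbols, H2AC25 and H2BC26. H2AW was at 46.8 and 38.9 FPKM under PBS and 46.5 and 45.1 under fluoxetine, above every gene of the clusters (log2 fold change 0.10, SE 0.09). H2BU1 had 49 reads in 1 PBS library and 9 in the other, and 9 and 21 under fluoxetine, the first PBS library standing above the other three (log2 fold change -0.62, SE 0.56).

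Many histone genes lie head to head and share the short stretch between their starts, so the members of such pairs were set side by side. Starts on opposite strands less than 1000 bases apart were found for 12 pairs, 194 to 979 bases apart. In the pair of H3C4 and H2BC7, the start taken for H3C4 coincides with an end of H2AC7. That gene overlaps H3C4 in RefSeq and is not among the members. In 11 of them both genes were tested, and in 5 of the 11 both fold changes lay on the same side of 0. H2BC21 starts 236 bases from H2AC20, and the reads of H2BC21, 420 and 374 under PBS and 458 and 482 under fluoxetine, gave a log2 fold change of 0.20 beside the 1.10 of H2AC20. H2AC15 and H2BC15, 194 bases apart, had log2 fold changes of 0.82 and -0.52. H2AC8 and H2BC8, 233 bases apart, had 1.004 and -0.06. The difference within a pair was not tested.

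Histone genes are among the shortest in the table, and short genes as a whole were measured differently in these libraries. The length implied by the reads of a cluster member ran from 387 to 2700 bases with a median of 494.5. Over 603 tested genes under 1000 bases, the median deviation of log2 FPKM from the gene's mean over the libraries was 0.0001 and -0.11 in the PBS libraries and 0.11 and 0.0017 in the fluoxetine libraries. The second PBS library and the first fluoxetine library stood apart, in opposite directions. The 560 tested genes under 1000 bases that are not histone genes had a median log2 fold change of 0.11, with 412 above 0 and 148 below. The 38 tested cluster members under 1000 bases had a median of -0.05, and the 5 of 1000 bases or more had 0.16. The difference between histone and other short genes was not tested. With the length trend removed in each library, the median over the tested cluster members was -0.09 in place of 0.05, H2AC20 had a log2 fold change of 0.96 (limma adjusted p = 0.147) and H4-16 one of -2.25 (limma adjusted p = 0.0996).

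Sequence shared between members limits some of the low values. Among 53 cluster members compared, 45 shared no stretch of 150 bases, the length of 1 read, with a gene at another locus, and 8 shared at least 1. Of the 53, 27 had transcript models that end at the stop codon, so sequence beyond it was not compared. H3C15 and H4C12 shared every stretch, H4C15 shared 97.0% of its stretches and H4C11 72.8%. H2AC13 and H2AC14 shared 183 stretches, 51.7% and 76.9% of those in each. H3-3A shared 8.8% of its stretches, with H3.3 pseudogenes among others. In RefSeq, H2BC12 overlaps H4C9 on the opposite strand, and whether reads were counted by strand is not given in the sources used here.

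The genes that make, process and remove histone mRNAs were then examined from lists of their factors. Of the 97 genes in these lists, 0 passed the adjusted threshold with limma and 0 with voom, where 0.237% of all genes did with limma, and 5 had an unadjusted p under 0.05, a smaller share than the 8.51% of all genes. Of 25 genes of histone and general mRNA 3′ end processing, 2 had an unadjusted p under 0.05, and the median log2 fold change was 0.02. The largest were SNRPE, a protein of the Sm ring, at 0.25 (SE 0.10) and CLP1, an RNA kinase of the cleavage machinery, at 0.22 (SE 0.09). SLBP, named for its role at the stem-loop after its values were seen, was at 60.3 and 60.0 FPKM under PBS and 67.4 and 64.1 under fluoxetine, without overlap (log2 fold change 0.13, SE 0.07, limma adjusted p = 0.613). Of 9 genes of histone mRNA decay, 2 were above 0 and 7 below, with a median of -0.03. XRN1, the main exonuclease acting from the 5′ end, was at -0.24 (SE 0.13) and TUT7, which adds uridines to RNA tails, at -0.17 (SE 0.09).

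Of 13 genes of histone gene transcription, 6 were above 0 and 7 below, with a median of -0.02. NPAT, the coactivator of the histone loci, was at 3.05 and 3.08 FPKM under PBS and at 2.54 and 2.84 under fluoxetine (log2 fold change -0.19, SE 0.13), and POU2F1, which binds H2B promoters, was at -0.14 (SE 0.12). Of 19 S phase genes, 14 were above 0 and 5 below, with a median of 0.08. In 10 of them, 52.6%, both fluoxetine libraries were above both PBS libraries, where 16.7% of all genes were, and 1 had an unadjusted p under 0.05. CDC45, a subunit of the replicative helicase, was at 22.5 and 23.4 FPKM under PBS and 26.7 and 25.97 under fluoxetine (log2 fold change 0.20, SE 0.07, limma adjusted p = 0.535). FEN1, which trims Okazaki fragments, had a log2 fold change of 0.16 (SE 0.08). Of 34 histone chaperones and partners, 18 were above 0 and 16 below, with a median of 0.0045, and the largest were UBN2 at -0.22 (SE 0.16) and CABIN1 at -0.19 (SE 0.08), both of the HIRA complex that deposits H3.3.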

How the data were processed

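RNA of LASCPC-01 cells was sequenced as 150 bp pairs. The submitters' processing notes name fastp, HISAT2, HTSeq and GRCh38 without versions, and the authors deposited FPKM per gene and library. Members and gene lists were chosen with earlier results of these data known. limma 3.58.1 in R 4.3.3 (variance trend) was run on log2(FPKM + 0.1) for genes averaging 0.1 FPKM or more, two-sided, with Benjamini-Hochberg adjustment over all of them at 0.05. Columns were assigned to samples by label.

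Reads were solved from FPKM as the smallest whole numbers giving a whole gene length from 50 to 40000 bases, within 0.0001 plus rounding. The depths, 32873603 to 34831389, were those at which 196 genes had their RefSeq span as length, so 1 read per kilobase was worth 0.0287 to 0.0304 FPKM. A count of 0 allows up to 3 reads, for counting error only. Recovery and limma were also run on simulated data. The simulation assumed a fixed spread between libraries and no length trend, so it does not show how limma performs on these libraries. Other steps used Python 3.11.15 (pandas 2.3.3, numpy 2.4.6, matplotlib 3.10.9).

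The results of 2 genes are not reported here. Named with values were members past the adjusted threshold, the 10 cluster members and 8 other variants with the highest mean, and the 3 of each class with the largest fold changes each way at a mean FPKM of at least 1. From each other list the 2 genes with the largest absolute fold change at that mean were named. Alternatives were a pseudocount of 0.01 or 1, a filter at 1 or none, TPM, median centring, quantile normalization, no variance trend, robust moderation, a replicate block, removal of the length trend (lowess, span 0.3) with and without the block, H4-16 counted with the clusters, and each library left out. Voom on reads and the newer RefSeq symbols were added after seeing the data.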

Additional observations from a re-analysis of the deposited data

How the results depend on the processing

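The count of cluster members called higher, 1, was 0 with no filter, quantile normalization, no variance trend, the length trend removed, voom on the reads, or any 1 library left out (0 to 0). The count of other variants called lower, 1, was 0 with a pseudocount of 1, no filter, a minimum mean FPKM of 1 (where H4-16 was not tested), quantile normalization, no variance trend, the length trend removed, voom, or any library left out (0 to 0), and 0 where H4-16 was counted with the clusters, which then had 1 lower. Over all alternatives the limma adjusted p of H2AC20 ran from 0.00347 to 0.665 and that of H4-16 from 0.00134 to 0.665. The causes were not tested.

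Same-numbered libraries had a correlation of deviations of 0.035 over all tested genes and 0.101 over those at a mean FPKM of at least 10, and with 2 pairs and no label that ties them, the libraries were taken to share only a number. With the replicate block, 64 genes were called in place of 30, and 1 cluster member, H2AC14 (8 and 16 reads, then 2 and 4), was called lower. With the length trend removed and the block, 0 cluster members were higher and 1 lower.

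The cluster median of 0.05 was 0.0952 with quantile normalization, -0.0942 with the length trend removed with or without the block, 0.0026 with H4-16 or the newer symbols counted with the clusters, and -0.0165 to 0.0615 with 1 library left out. The median of the other variants was -0.0265 to 0.1388 with 1 library left out. The summed ratios were 0.0264 (clusters) and 0.0324 (other variants) as TPM, and -0.0449 and -0.0029 with the length trend removed. With 1 library left out they ran from 0.035 to 0.1122 and from 0.0277 to 0.1347. They have no value under alternatives of the log scale or the test.

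Reversals were examined only in the histone genes chosen above to be named with values. Of these, 11 reversed, and none of the 11 had passed the adjusted threshold. With the length trend removed, log2 fold changes became -0.0002 (H2BC12), -0.0427 (H1-2), -0.0007 (H2BC5), -0.0942 (H3C10), -0.0083 (H2AX) and -0.0339 (H2AW). As TPM they became -0.0006 (H3C10), -0.0016 (H2AX) and -0.0384 (H2AZ2), and with quantile normalization -0.0498 (H2AX). With 1 library left out, they ran from -0.2802 to 0.0166 (H2AC6), -0.0232 to 0.503 (H2BC9), -0.0107 to 0.1482 (H1-2), -0.207 to 0.0951 (H2BC8), -0.1015 to 0.2383 (H2BC5), -0.0288 to 0.1193 (H3C10), -0.035 to 0.1274 (H2AX), -0.0306 to 0.2355 (H2AW), -0.0225 to 0.041 (H2AZ2) and -1.7903 to 0.5444 (H2BU1). Of 55 cluster members, 40 rest on under 100 reads in all, which limits the precision of their fold changes.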

Other observations

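Histone genes outside the symbol rule were all within a narrow range. MACROH2A2, which encodes a large H2A variant of silent chromatin, was at 35.4 and 37.2 FPKM under PBS and 43.2 and 37.7 under fluoxetine, without overlap (log2 fold change 0.15, SE 0.08, limma adjusted p = 0.613). CENPA, the H3 variant of centromeres, was at 19.8 and 15.9 FPKM and then 19.1 and 18.8, with overlap (log2 fold change 0.09, SE 0.10). Of 26 RNAs made without a poly(A) tail, 0 were listed in the table, so the carry-over of such RNA could not be measured from them.

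Of the 73 histone genes, 18 were too low to be tested, 12 in the clusters and 6 among the other variants. H2BC6 and H2BE1 were listed at 0 in all 4 libraries. Some low members had their reads in 1 library, as H3-2 with 8 reads in the first fluoxetine library and none elsewhere, and H1-1 with 6 in that library and 1 in the other three together. H1-1, H1-3 and H1-4 all had their most reads in the first fluoxetine library, 6, 6 and 9, whereas H1-5 had 7 in the second. These genes were chosen after their values were seen.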
